A study of Mus musculus with 6 samples.

Results

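The mRNAs encoding the proteins of the cytosolic ribosome were followed in the polysomal RNA of hippocampal astrocytes. The members are the protein-coding genes whose symbol is Rpl or Rps with a number and at most 1 further letter, together with Rplp0, Rplp1, Rplp2 and Rpsa. They are 80 of the 22086 mouse genes matched, 49 of the large and 31 of the small ribosomal subunit. The members were chosen by symbol, with earlier results of these data known. Each gene was read through 1 transcript, the one that drew the most reads when all 6 libraries were summed. Of the members, 75 (45 of the large and 30 of the small subunit) had enough counts to be compared between genotypes, among 13545 such genes.

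The study asked how deletion of connexin 43, a gap junction protein of astrocytes encoded by Gja1, changes the mRNAs bound to astrocyte ribosomes. Translating ribosome affinity purification (TRAP) was performed on whole hippocampi of 6 weeks-old mice, in which a fusion of the ribosomal protein L10a with eGFP is driven by the promoter of Aldh1l1, an astrocyte gene. There were 3 Cx43FL libraries, whose mice carried the transgene tg:Aldh1L1-RPL10aGFP and 2 floxed alleles (Cx43 fl/fl, littermates), and 3 Cx43KO libraries, whose mice had Gfap Cre in addition. The tagged ribosomal protein and the floxed Gja1 alleles were thus shared by all 6, and the Gfap promoter that drives Cre is known to be active in neural progenitors too.

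A ribosome is built from a small subunit, which decodes the mRNA, and a large subunit, which joins amino acids and holds the tunnel through which the new protein leaves. Each subunit needs its proteins in matched amounts, and many of their mRNAs begin with a C followed by a run of C and T. This run, the 5′ terminal oligopyrimidine tract, makes their translation depend on mTORC1 and on the RNA-binding protein Larp1. Ribosomal protein mRNAs are short and abundant, and have left many processed pseudogenes in mammalian genomes. In TRAP these mRNAs are cargo of the tagged ribosomes like any other mRNA. Their level does not count the ribosomes.

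The start sites of 60 of the 80 members were matched to promoters of RefSeq on GRCm38.p6. A first base C followed by at least 4 more C or T, hence a tract of at least 5 bases, was found in 12 of them (20%), against 2.29% of the 10515 tested genes with an entry and 2.49% of all 27025 entries. The windows below show 8 of the 12, as 30 bases before and 20 bases from the annotated start, with the tract in capitals.
Rplp2, chr7:141447621-141447670, plus strand: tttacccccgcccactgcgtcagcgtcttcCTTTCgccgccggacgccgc
Rpl14, chr9:120571487-120571536, plus strand: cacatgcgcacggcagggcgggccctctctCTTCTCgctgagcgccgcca
Rpl15, chr14:18270967-18271016, minus strand: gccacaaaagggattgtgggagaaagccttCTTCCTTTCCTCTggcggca
Rpl38, chr11:114668550-114668599, plus strand: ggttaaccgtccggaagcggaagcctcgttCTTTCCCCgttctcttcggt
Rps10, chr17:27635225-27635274, minus strand: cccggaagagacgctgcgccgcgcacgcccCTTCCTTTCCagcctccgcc
Rps18, chr17:33955646-33955695, minus strand: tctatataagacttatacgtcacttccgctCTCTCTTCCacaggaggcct
Rps21, chr2:180257349-180257398, plus strand: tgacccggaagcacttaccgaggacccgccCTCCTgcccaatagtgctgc
Rps27, chr3:90213629-90213678, minus strand: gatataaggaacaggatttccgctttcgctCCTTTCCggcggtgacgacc
The tract was 13 bases long in Rpl15 and 5 in Rplp2 and Rps21.

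Members without the tract at their annotated start are shown by Rpl4, the second most abundant, Rpl34, one of the larger differences between genotypes, and Rpl10a, whose protein carries the tag and whose first base alone is a C (in capitals).
Rpl4, chr9:64173357-64173406, plus strand: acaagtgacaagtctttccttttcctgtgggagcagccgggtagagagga
Rpl34, chr3:130730379-130730428, minus strand: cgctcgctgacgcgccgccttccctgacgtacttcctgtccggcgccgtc
Rpl10a, chr17:28328441-28328490, plus strand: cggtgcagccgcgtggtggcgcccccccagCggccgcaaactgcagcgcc
In Rpl4 and Rpl34 a pyrimidine run lies within a few bases of the annotated first base, on the one side or the other. The search required a tract at that exact base, and a match or its absence describes these letters only. Of genes with several annotated starts, such as Rpl10a and Rpl34 with 2 each, only the start listed first was searched. Other motifs were searched on both strands of the 300 bases around the start (250 before it). CCGGAA, a core of ETS factor sites, was found in 50% of the members against 27.2% of tested genes. The share was 58.3% against 64.6% for GGGCGG (SP1), 6.67% against 4.57% for AAGATGGC (YY1), 8.33% against 10.1% for the E-box CACGTG, 8.33% against 6.80% for TATAAA and 8.33% against 3.23% for TGACGTCA, a cAMP response element. Matches of different motifs, searched separately, may overlap in a promoter.

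The authors deposited raw counts on transcripts, which after the choice of 1 transcript a gene came to 14.8 to 15.4 M per Cx43FL library and to 16.1, 24.0 and 34.7 M per Cx43KO library. Levels are given as CPM, reads per M counted reads of a library, tested genes only, scaled by TMM, and 3 counts correspond to 0.0864 to 0.203 CPM before that scaling, for counting error only. Gja1 itself (chr10:56377330-56390415) was at 92.0, 91.7 and 82.3 CPM in the Cx43FL and at 87.2, 98.4 and 95.1 CPM in the libraries labelled Cx43KO (log2 fold change 0.08, SE 0.28, adjusted p = 0.949 by edgeR's quasi-likelihood test). The counts thus gave no check of that label, and these libraries are called Cx43KO below as labelled. The 8 astrocyte markers together held 16471 to 20729 CPM in the Cx43FL libraries, against 10171, 19000 and 28883 CPM in those labelled Cx43KO. Cx43KO replicate 1 stood apart, its log2 CPM correlating with the other libraries at 0.737 to 0.801 across genes, and held the most neuronal (4593 against 1593 to 3338 CPM elsewhere, summed over 8 markers) and oligodendrocyte marker RNA (2604 against 588 to 978 CPM, 8 markers). All 8 neuronal and all 8 oligodendrocyte markers were counted in every library. By contrast, the 5 of 8 endothelial markers that were tested summed to 5.10 to 22.7 CPM. Cldn5 and Flt1, and Tek among those not tested, were at 0 in Cx43KO replicate 2. The 7 of 8 microglial markers that were tested together held 27.4 to 49.5 CPM in Cx43FL, against 73.5 to 124 CPM in Cx43KO. Of these 7, 5 had a positive log2 fold change and 2 a negative one, P2ry12 (-0.20) and Tmem119 (-0.23). Tmem119 was at 0 in Cx43KO replicate 1, Itgam in Cx43FL replicate 2, and C1qa, which was not tested, in Cx43FL replicates 1 and 2. The 4 markers of oligodendrocyte precursors held 155 to 178 CPM in Cx43FL, against 166 to 280.2 CPM in Cx43KO. The 7 tested of 13 mRNAs encoded by mitochondria held 240.5 to 435 CPM in Cx43FL, against 79.4 to 1334 CPM in Cx43KO. The part of all these marker RNAs in the results below was not tested, and in bulk RNA fewer cells of a type and less RNA per cell cannot be told apart.

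The most abundant member was Rpl41, a very short basic protein of the large subunit. Per kilobase of spliced transcript it reached 1049 ± 407 CPM per kb in Cx43FL (SD, n = 3 libraries). Rpl4, which lines the exit tunnel, was at 609 ± 70.1 CPM per kb, and high levels were also seen for Rpl32 (581 ± 159) and Rps21 (518 ± 219 CPM per kb). The lowest Cx43FL library of Rpl41, at 684 CPM per kb, was just under the highest of Rpl4, at 688 CPM per kb, and Rpl4, Rpl32 and Rps21 differed from each other by less than the SD of Rps21. The median of the tested members was 66.0 CPM per kb (quartiles 12.3 and 155), against 7.60 CPM per kb over all tested genes, and 63 of the 75 were above that value.

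At the other end of the tested members stood Rpl10, a protein of the tRNA-binding side of the large subunit, with 0.55 ± 0.323 CPM per kb in Cx43FL. Rpl24 was at 1.53 ± 0.824, Rpl9 at 2.90 ± 1.38, Rpl12 at 3.25 ± 2.68 and Rpsa, which is also known as a laminin receptor, at 3.59 ± 2.45 CPM per kb. The levels of the transcripts read thus differed by 1908-fold between Rpl41, the highest member, and Rpl10, the lowest of those tested. Both Rpl10 and Rpl9 were read through transcripts that do not encode the protein, as were 11 of the 80 members in all (Rpl10a, Rpl28 and Rps6 among them), because these had the highest total.

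Of the 5 members that could not be compared, Rpl10l, Rpl39l and Rpl3l are tissue-restricted relatives of Rpl10, Rpl39 and Rpl3. Rpl10l had no count in any library, and Rpl39l had 3 counts in Cx43FL replicate 1 and none elsewhere. Rpl3l, the form of striated muscle, had 0, 9 and 18 counts in Cx43FL and 2, 0 and 0 in Cx43KO. By contrast Rpl3 had 186 to 251 counts in Cx43FL, and Rpl39 788 to 2338. The other two, Rpl28 and Rps6, belong to every ribosome. Rps6, the substrate of the S6 kinases, had 7, 6 and 5 counts in Cx43FL and 9, 28 and 5 in Cx43KO. Rpl28 had 182 counts in Cx43FL replicate 2 and 2 to 9 in the other 5 libraries.

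The relatives Rps27 and Rps27l were both tested, at 4.90 ± 1.33 and 216 ± 68.0 CPM per kb in Cx43FL. Rps27l, a target of p53 in its known biology, was thus counted well above the canonical gene. Their sequences differ in how far they can be told from copies, as follows. Rps4l is listed in the annotation as a transcribed processed pseudogene and is no member; it had 58 to 202 counts a library, against 1134 to 2465 for Rps4x.

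Because the authors removed reads that matched more than once, the sequence of each member was compared with the annotated transcripts of all other loci. For each member, the share of its 50-base windows (the read length) that had no exact copy there was computed. It ranged from 1.35% in Rps27 to 100%, as in Rpl3l and Rpl39l, with a median of 57.0%, and 77 of the 80 members had at least 1 window with a copy. In Rps27 the closest other locus, Rps27rt, held 98.6% of the windows. In Rps27l 86.3% of the windows had no copy. Rpl3 (14.4%), Rps12 (14.3%), Rps13 (17.0%) and Rpl23a (17.4%) were also nearly covered by copies, against 83.5% in Rpl4 and 97.0% in Rps3. Only annotated transcripts were searched, so that these shares are upper limits of the unique part of each member.

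Members with more unique windows had higher levels. Across the 75 tested members, Spearman's rho between the level per kb in Cx43FL and the share of unique windows was 0.49, and it was 0.58 across the 66 read through a protein-coding transcript. This is a description across genes that share libraries, and genes are not independent replicates. The 44 members with at least 50% of unique windows had a median of 122 CPM per kb, and the 31 below had a median of 18 CPM per kb. Dividing by the number of unique windows narrowed the ratio of the upper to the lower quartile from 12.7 to 7.21, whereas the ratio of the highest to the lowest member went from 1908 to 2776. In both of the latter ratios the lowest member was Rpl10, with the windows of a transcript that does not encode the protein. The part of discarded reads in the order of the members was not tested further. In members read through a transcript that does not encode the protein, the share of the protein-coding transcript can differ. It was 14.6% in Rpl10 against 81.1% in the transcript read, and 15.4% in Rps6 against 44.9%.

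**Figure D1:**
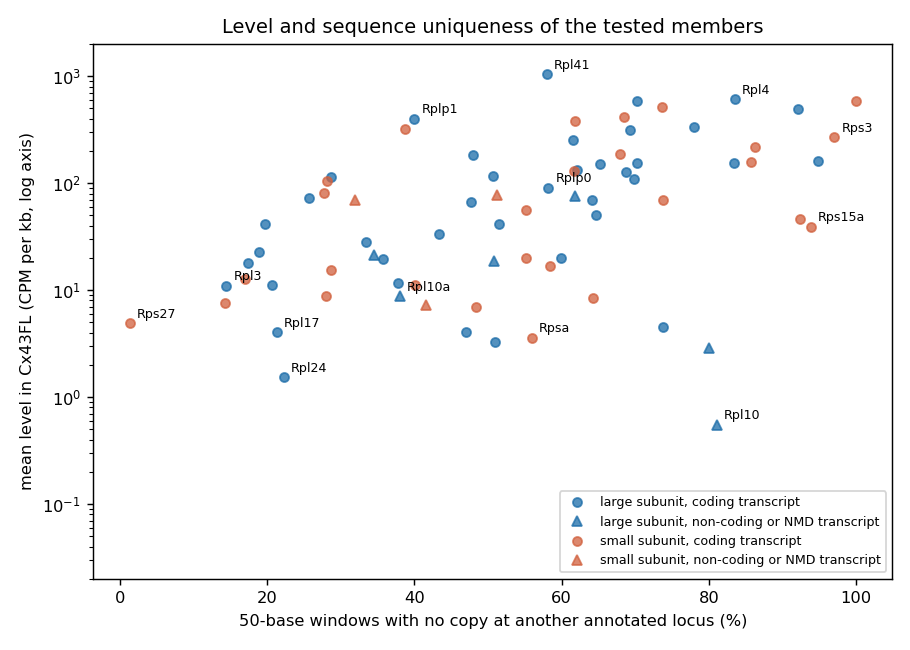
Mean level in the 3 Cx43FL libraries (CPM per kb, log axis) of each of the 75 tested members against the share of its 50-base windows with no copy at another annotated locus (%). Blue marks the large and orange the small subunit, and triangles mark members read through a transcript that does not encode the protein. Rps27, at 1.35%, lay low and Rpl4, at 83.5%, was high. Rpl41, the highest member, was at 58.0%, and Rpl10, the lowest, at 81.1%.

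Between replicates 2 and 3 of each genotype, most members moved in the same direction. Their summed counts made up 0.829%, 1.10% and 0.664% of all counts on genes in the Cx43FL libraries (replicates 1 to 3), against 0.799%, 0.871% and 0.545% in the Cx43KO libraries. Cx43FL averaged 0.864 ± 0.219% and Cx43KO 0.738 ± 0.171% (SD, n = 3), a difference of -0.126 percentage points that is smaller than either SD. Without Cx43FL replicate 2 the difference was -0.00855 percentage points, and without Cx43KO replicate 3 it was -0.0293. It was -0.225 without Cx43FL replicate 3, -0.192 without Cx43KO replicate 2 and -0.227 with all transcripts of a gene added up. The ranges of the genotypes overlapped between 0.664% and 0.871%, and both ends were lower in Cx43KO.

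Replicates 2 and 3 of Cx43FL differed in the same direction in most members. Replicate 2 was above replicate 3 in 67 of the 75 members (89.3%), against 48.2% of all tested genes, with a median difference of 0.79 in log2(CPM + 0.5). Cx43KO replicate 2 was above replicate 3 in 59 members (78.7%, against 48.8% of tested genes), with a median difference of 0.48. Cx43FL replicate 2 was the highest of the 6 libraries in 44 members and the lowest in none, whereas Cx43KO replicate 3 was the lowest in 35. Over all tested genes these 2 libraries were highest and lowest in 19.7% and 17.3%. The shift of Cx43FL replicate 2 was shared by both subunits. Its medians were 0.32 in the large and 0.43 in the small subunit, relative to the mean of the 3 Cx43FL libraries. In Cx43KO replicate 1 they were -0.07 and -0.36, and the members were split. That library was the highest of the 6 in 11 members (14.7%) and the lowest in 20 (26.7%), against 30.3% and 29.9% of all tested genes.

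**Figure D2:**
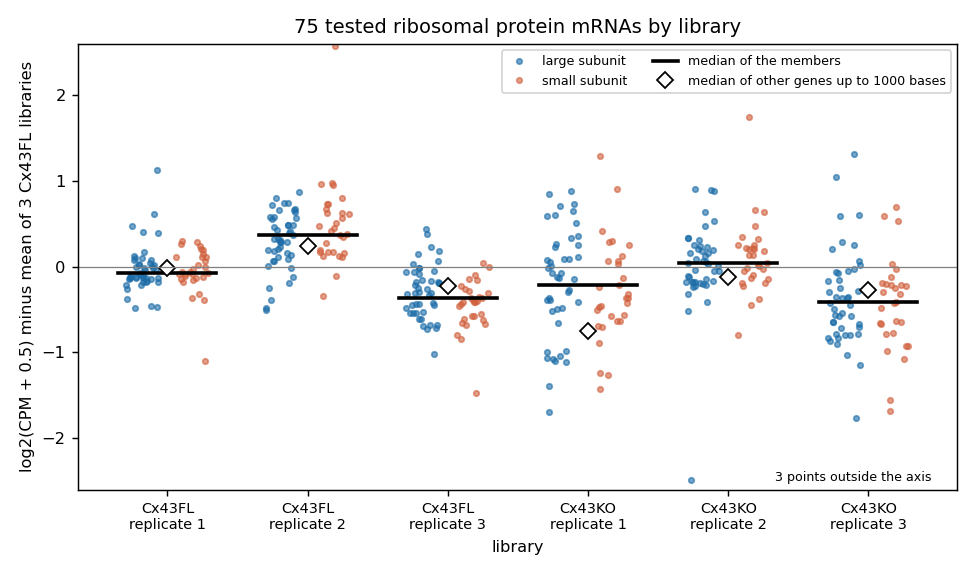
Each point is 1 of the 75 tested members (blue, large subunit, and orange, small subunit), as log2(CPM + 0.5) minus the mean of the 3 Cx43FL libraries, in each of the 6 libraries, with the members' median as a bar and the median of 826 other genes with transcripts up to 1000 bases as a diamond. The bar was highest in Cx43FL replicate 2 (0.37) and lowest in Cx43KO replicate 3 (-0.41), and 3 points lie outside the axis.

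Short genes that encode no cytosolic ribosomal protein followed the same libraries in part. The members' transcripts had a median length of 834 bases over all 80, against 3108 bases over tested genes. Relative to the mean of the Cx43FL libraries, the members' medians in Cx43FL were -0.07, 0.37 and -0.36, against -0.21, 0.05 and -0.41 for Cx43KO. Those of the 826 other tested genes with transcripts up to 1000 bases were -0.02, 0.24 and -0.23 in Cx43FL, against -0.74, -0.12 and -0.27 for Cx43KO. The members were thus above other short genes in Cx43KO replicate 1 and below them in Cx43KO replicate 3. The mitochondrial ribosomal proteins (78 genes) had medians of -0.03, 0.31 and -0.22 in Cx43FL and -0.72, -0.31 and -0.27 in Cx43KO.

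No member differed between genotypes past the threshold. edgeR called 1 gene of all 13545 higher in Cx43KO (0.00738%) and 0 lower, at an adjusted p below 0.05, and none of them was a member. The lowest adjusted p of a member was 0.585 (Rpl30). At an unadjusted p below 0.05, edgeR found 0 members higher (background 5.66%) and 1 lower (2.67%). DESeq2 with its prior called 99 genes higher (0.731%) and 14 lower (0.103%), and without the prior 118 (0.871%) and 19 (0.14%), again with 0 members. At an unadjusted p below 0.05 it found 1 member higher, Rpl10, and 1 lower, Rpl30, with or without the prior (background 7.45% higher and 3.39% lower with it, 7.68% and 3.46% without). The transcript read for Rpl10 was chosen by a total that came mostly from Cx43KO replicate 1. The smallest fold changes that these libraries could separate were limited by the spread, the members' SE having a median of 0.44 on the log2 scale (0.26 to 1.58).

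The members' log2 fold changes, Cx43KO minus Cx43FL, had a median of -0.19, against 0.07 over all tested genes. They were negative in 51 members (68.0%, background 45.6%) and positive in 24 (32.0%, background 54.4%). Of the 826 other tested genes with transcripts up to 1000 bases, 577 were negative and 249 positive. In 55 of the 75 members the log2 fold change was smaller than its own SE. The members' median was -0.13 in the large and -0.21 in the small subunit. Without Cx43FL replicate 2 the members' median was 0.02, with 39 members positive and 36 negative, against 0.08 over all tested genes. Its negative sign, though not its place below all tested genes, thus rested on that library. Without Cx43KO replicate 1, the library that stood apart, the members' median was -0.23. With offsets for GC content and transcript length it turned to 0.22, with 55 members positive and 20 negative. Other genes with transcripts up to 1000 bases had a median log2 fold change of -0.36 without and 0.02 with these offsets, and genes above that length 0.10 and 0.04. The offsets were fitted on the tested genes themselves, so that medians near 0 for genes grouped by length were built in. Among the members themselves, Spearman's rho between the log2 fold change and the transcript length was 0.40 (75 members, which share the libraries).

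**Figure D3:**
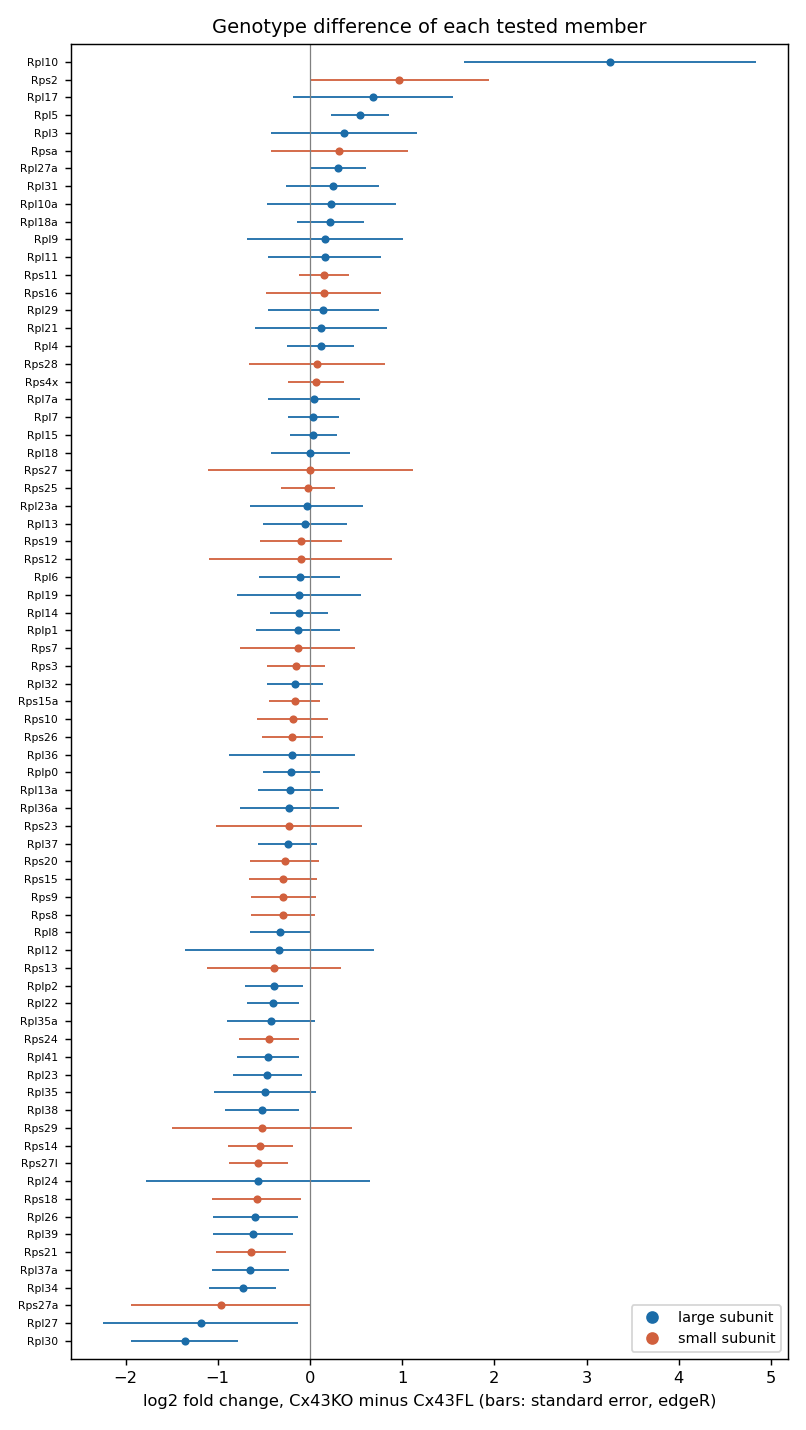
Log2 fold change between Cx43KO and Cx43FL (x axis) of 73 of the 75 tested members, ordered by value, with its standard error from edgeR as a bar and the subunit by colour. They range from -1.36 (Rpl30) to 3.25 (Rpl10, read through a transcript with a retained intron). Of the 73, 49 lie below 0, and in 53 the bar reaches 0.

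**Figure D4:**
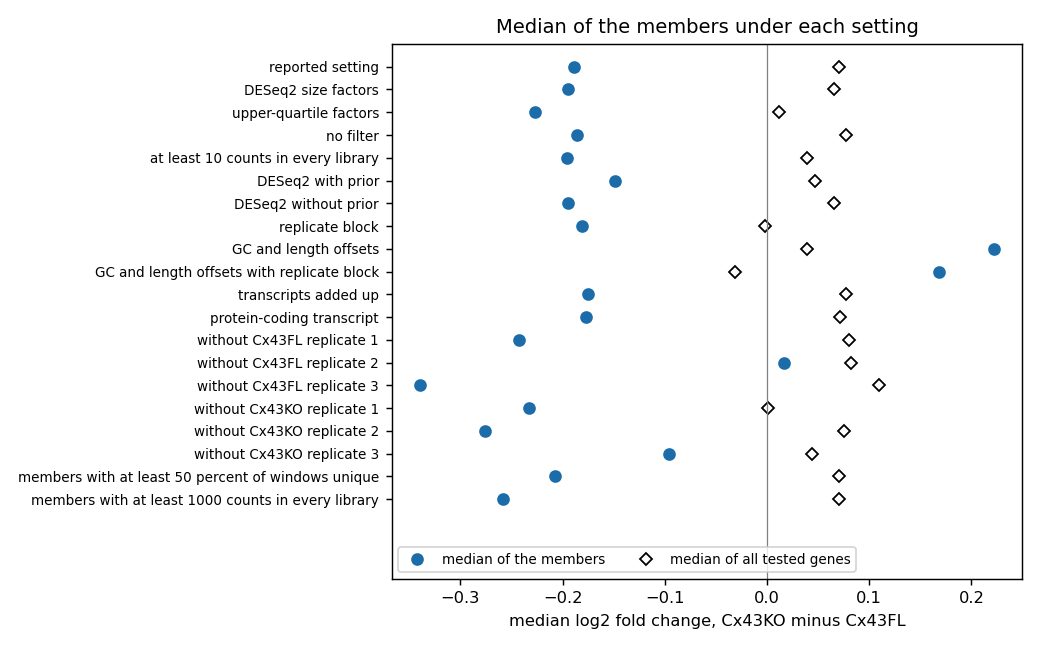
Median log2 fold change of the tested members (filled points) and of all tested genes (open diamonds) under the reported setting and each alternative, which are listed on the y axis. The members' median was between -0.34 and -0.10 except without Cx43FL replicate 2 (0.02) and with offsets for GC content and length (0.22, or 0.17 with the replicate block).

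Rpl30 (chr15:34440505-34443640 for its transcript of 5 exons), a large subunit protein that binds a stem of the ribosomal RNA and is known to regulate its own mRNA in yeast, had the largest negative value. It was at 144, 150 and 112 CPM in Cx43FL and at 41.2, 13.0 and 104 CPM in Cx43KO, so that the groups did not overlap. The log2 fold change was -1.36 (SE 0.58, adjusted p = 0.585, exact permutation p = 0.1, the smallest that 3 libraries against 3 allow). Leaving out single libraries moved it between -2.33, without Cx43KO replicate 3, and -0.90, without Cx43KO replicate 2. Among the Cx43KO libraries replicate 3 was close to the Cx43FL range, and replicates 1 and 2 were far below it.

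Rpl27, another large subunit protein, was the only other member with every Cx43KO library below Cx43FL (2 of 75, 2.67%, background 7.45%). It was at 4.15, 1.86 and 2.93 CPM in Cx43FL and at 1.06, 1.85 and 1.02 CPM in Cx43KO, on 17 to 63 counts a library. Its log2 fold change of -1.18 had an SE of 1.06. Rps27a, which is made as a fusion with ubiquitin, was at 3.62, 9.95 and 3.13 CPM in Cx43FL and at 2.98, 4.38 and 1.17 CPM in Cx43KO, with overlapping groups (log2 fold change -0.97, SE 0.97). Without Cx43FL replicate 2 this became -0.26.

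Rpl34 was at 81.5, 111 and 54.4 CPM in Cx43FL and at 39.8, 63.3 and 45.5 CPM in Cx43KO, and 1 Cx43KO library lay within the Cx43FL range. Its log2 fold change was -0.73 (SE 0.37, adjusted p = 0.609 by edgeR). Rpl37a was at 119, 221 and 86.2 CPM in Cx43FL and at 65.6, 137 and 70.1 CPM in Cx43KO (-0.65, SE 0.42). Rps21, a small subunit protein with the terminal tract shown above, was at 192, 296 and 125 CPM in Cx43FL and at 124, 179 and 90.6 CPM in Cx43KO (-0.64, SE 0.38). In these 3 genes Cx43FL replicate 2 was the highest library, as in most members, and with the GC and length offsets their log2 fold changes were -0.27, -0.19 and -0.06.

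On the positive side, Rpl10 had 12, 3 and 8 counts in Cx43FL and 212, 33 and 3 in Cx43KO. Its log2 fold change of 3.25 (SE 1.58, adjusted p = 0.602 by edgeR) was carried by Cx43KO replicate 1, without which it was 0.49. The transcript read is one with a retained intron, and the best counted protein-coding transcript of Rpl10, with 11 to 28 counts in Cx43FL and 7 to 46 in Cx43KO, gave 0.01. Most of the total by which the retained-intron transcript was chosen came from Cx43KO replicate 1. The choice and the difference thus rest on the same library. Rps2, which lines the path by which mRNA enters the small subunit, had 47, 688 and 35 counts in Cx43FL and 296, 632 and 1815 in Cx43KO. The 2 groups overlapped through Cx43FL replicate 2, which held 45.6 CPM against 3.10 and 2.28 CPM in its group. The log2 fold change was 0.97 (SE 0.97) and rose to 3.61 without that library. Of the windows of Rps2, 28.7% had no copy elsewhere.

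Every Cx43KO library was above every Cx43FL library in Rpl17 and Rpl5 (2 of 75, 2.67%, background 8.08%). Rpl5, which carries the 5S ribosomal RNA into the large subunit and, when free, restrains Mdm2, was at 63.7, 94.9 and 94.5 CPM in Cx43FL and at 119, 154 and 95.7 CPM in Cx43KO. The gap between the groups was thus small, from 94.9 to 95.7 CPM, and the log2 fold change was 0.54 (SE 0.32, adjusted p = 0.635 by edgeR). Rpl11, its partner on the 5S ribosomal RNA, was at 8.50, 14.1 and 6.77 CPM in Cx43FL and at 9.75, 13.3 and 9.79 CPM in Cx43KO (0.16, SE 0.62). Rpl17, a protein of the exit tunnel, was at 3.10, 3.32 and 3.0 CPM in Cx43FL and at 3.85, 6.23 and 5.03 CPM in Cx43KO (0.68, SE 0.86), on 46 to 163 counts. Rpl3, near the peptidyl transferase centre, was at 15.9, 12.3 and 16.3 CPM in Cx43FL but at 17.9, 2.21 and 37.4 CPM in Cx43KO (0.37, SE 0.79), a wider range within Cx43KO than between the groups.

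**Figure D5:**
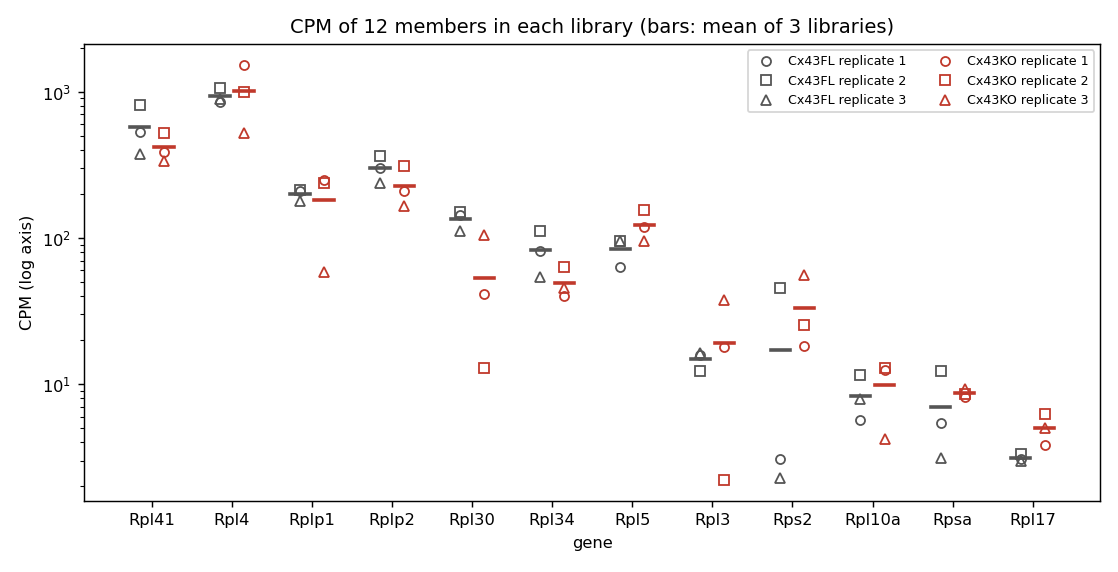
CPM (log axis) of 12 members in each of the 6 libraries, Cx43FL in grey and Cx43KO in red, with circles, squares and triangles for replicates 1 to 3 and bars for the mean of 3 libraries. The groups do not overlap in Rpl30, Rpl5 and Rpl17, and in the 9 others they do.

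The stalk of the large subunit, which recruits the elongation factors, is made of Rplp0, Rplp1 and Rplp2. Rplp0, often used as a reference gene, was at 119, 149 and 103 CPM in Cx43FL and at 132, 108 and 81.9 CPM in Cx43KO (log2 fold change -0.20, SE 0.31). Rplp1 was at 210, 212 and 178 CPM in Cx43FL and at 251, 238 and 58.1 CPM in Cx43KO, where replicate 3 alone was low (-0.13, SE 0.46). Rplp2, which starts with the tract shown above, was at 300.1, 361 and 237 CPM in Cx43FL and at 210, 308 and 166 CPM in Cx43KO (-0.39, SE 0.31). All 3 log2 fold changes were negative and the groups overlapped in each. Without Cx43KO replicate 3 that of Rplp1 was 0.29, and with the offsets Rplp0 and Rplp1 were at 0.18 and 0.35.

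Rpl10a, the protein fused to eGFP for the pull-down, was at 5.66, 11.5 and 7.95 CPM in Cx43FL and at 12.5, 12.8 and 4.20 CPM in Cx43KO. The groups overlapped (log2 fold change 0.23, SE 0.70, adjusted p = 0.936 by edgeR). It ranked low for a member, with 8.81 ± 3.09 CPM per kb in Cx43FL, 38.0% of the windows of the transcript read, which does not encode the full protein, had no copy elsewhere (22.5% in its protein-coding transcript), and whether reads of the transgene fall on it was not tested. Rpsa was at 5.47, 12.3 and 3.13 CPM in Cx43FL and at 8.19, 8.56 and 9.29 CPM in Cx43KO, so that the Cx43KO libraries lay inside the range of Cx43FL (0.32, SE 0.74). Among the most abundant members, Rpl4 was at 854, 1059 and 897 CPM in Cx43FL but at 1528, 994 and 522 CPM in Cx43KO, and its log2 fold change was 0.11 (SE 0.37). Rpl41 (-0.46, SE 0.34) and Rpl32 (-0.16, SE 0.30) were again highest in Cx43FL replicate 2.

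By position in the ribosome, the log2 fold changes went in both directions within most groups. Of the 3 proteins of the exit tunnel, Rpl4 and Rpl17 were positive and Rpl39 negative (-0.62, SE 0.44). Of the 5 around the rim of its exit, Rpl23a, Rpl35, Rpl26 and Rpl19 were negative and Rpl31 positive, between -0.59 and 0.24. Among 8 members that are mutated in Diamond-Blackfan anaemia (Rps19, Rps24, Rps7, Rps10, Rps26, Rpl5, Rpl11 and Rpl35a), 6 were negative, with a median of -0.16, against -0.19 for all tested members. The member with the smallest SE was Rpl15, with 216, 210 and 209 CPM in Cx43FL and 201, 242 and 208 CPM in Cx43KO (0.03, SE 0.26). The tract of the start site did not set the members apart beyond their range. The 10 tested members with it had a median of -0.29 (-0.64 to 0.03), the 45 without it -0.15 (-1.18 to 3.25), and the 20 with no promoter entry -0.18.

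Genes around the ribosome were read from the same comparison, and none passed the test in either direction. Of the 6 genes of ribosome-linked proteins outside the rule, Rack1, a scaffold of the small subunit, was at 322 ± 138 CPM in Cx43FL and 315 ± 99.5 CPM in Cx43KO (SD, n = 3), and the median log2 fold change was -0.04, which turned to 0.30 with the GC and length offsets. The 34 tested factors of translation had a median of -0.13 (0.0051 with the offsets). Eef2 was at 0.66 (SE 0.44) and Eif4e, which binds the cap, at -0.67 (SE 0.30, adjusted p = 0.592 by edgeR). The 40 ribosome assembly factors had a median of -0.18 (-0.12 with the offsets), with Polr1b, a subunit of RNA polymerase I, at 2.68 (SE 1.18) and Ebna1bp2 at -0.88 (SE 0.41). The 26 genes of the mTORC1 and Larp1 pathway had a median of -0.04 (-0.09 with the offsets). Of these 26, 1 had every Cx43KO library above every Cx43FL library (background 8.08%) and 5 had every one below (background 7.45%). The 1 above was Larp1, which binds the terminal tract, at 80.2, 48.4 and 86.9 CPM in Cx43FL and at 118, 133 and 103 CPM in Cx43KO (0.71, SE 0.32, adjusted p = 0.596 by edgeR). Among the 5 below was Rraga, a GTPase that places mTORC1 at the lysosome, at 271, 243 and 156 CPM in Cx43FL and at 100.3, 92.0 and 155 CPM in Cx43KO (-0.95, SE 0.33, adjusted p = 0.54 by edgeR). The 78 mitochondrial ribosomal proteins, the counterparts of the members in the mitochondrion, had a median of -0.39 (-0.21 with the offsets). Of these 78, 66 were negative (background 45.6%), and 16 had every Cx43KO library below every Cx43FL library (background 7.45%). Among the 826 tested genes outside the members with transcripts up to 1000 bases, 577 were negative and 119 had every Cx43KO library below.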

How the data were processed

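Polysomal RNA from TRAP was measured in 3 Cx43FL and 3 Cx43KO libraries. According to the study's methods and the labels, 2 ng of RNA was amplified, sequenced in 50-base reads, filtered (reads of 40 bases or fewer, or of mean quality 30 or less, were removed), mapped with STAR on mm10 and counted with HTSeq 0.5.3 after removal of reads that matched more than once. The authors deposited these raw counts per transcript, not normalized. A read can count on several transcripts of a gene: among the 52 members with more than 1 counted transcript, the second was within 5% of the first in 36. Removal of multiply matched reads lowers genes with copies, and amplification makes reads dependent.

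Of the transcripts, 73157 had an entry in GENCODE M21 (GRCm38). The 2309 without one took 1.60% to 1.78% of counts and were left out. The tests had been planned for genes and the files hold transcripts, so the best counted transcript stood for its gene. Genotypes were compared with edgeR 4.0.16 (R 4.3.3) by TMM, filterByExpr and the quasi-likelihood F test on genotype alone, with Benjamini-Hochberg adjustment over all 13545 tested genes at 0.05. The SE is the size of each log2 fold change over the root of its F statistic, and the biological coefficient of variation was 0.600. Permutation tests were exact and 2-sided on log2(CPM + 0.5). Alternatives were DESeq2 1.42.0 with and without its prior, other scaling (DESeq2 or upper-quartile factors), other filters (none, or 10 or more counts in each library), a replicate block, offsets by loess for GC content and length, added-up or protein-coding transcripts, unadjusted p-values and leaving out each library. The fit was tested on simulated data. Windows were compared with annotated transcripts more than 2000 bases from the locus, no genome sequence being used here. python 3.11.15, numpy 2.4.6, pandas 2.3.3, scipy 1.17.1, limma 3.58.1 and matplotlib 3.10.9 were used.

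Members named are Rpl10a, Rplp0, Rplp1, Rplp2, Rpsa, the 5 highest and 5 lowest tested by level per kb, the 6 largest log2 fold changes in each direction, those not tested, and paralogs. Results for 2 of the members are not reported here one by one, and counts and medians over the members include them. Outside this rule, Rpl11, Rpl19, Rpl23a, Rpl26, Rpl31, Rpl35, Rpl35a, Rps7, Rps10, Rps19, Rps24 and Rps26 are named by their role, Rpl14, Rpl38, Rps10 and Rps18 by their start site, and Rpl15, Rps3, Rps12 and Rps13 were chosen after their values were seen. Other lists give at most 3 genes each. The members and lists were chosen with earlier results of these data known. Nothing in the labels says that libraries came from separate animals, so that p-values measure the spread between libraries. Libraries of Cx43FL and of Cx43KO carry numbers from different ranges, and a library batch and the genotype cannot be told apart.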

Additional observations from a re-analysis of the deposited data

How the results depend on the processing

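No member passed an adjusted threshold under any alternative, the lowest adjusted p among 26 named tested members being 0.214. At the unadjusted threshold 1 member was called. Over all tested genes, 1 was called in the reported setting, 0 with at least 10 counts in every library, 0 with transcripts added up, 113 and 137 by DESeq2 with and without its prior, 2 with the replicate block, 2 with the block and offsets for GC content and length, 1129 without adjustment, and 0 to 11 when single libraries were left out.

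The members' median of -0.19 was 0.22 with the offsets and -0.34 to 0.02 when single libraries were left out, and the replicate block left it at -0.18. Same-numbered libraries did not deviate together (correlations -0.0389 to -0.00706), so that the numbers were not taken as pairs. Further alternatives for the median were chosen after seeing the data, giving -0.21 over members with at least 50% unique windows and -0.26 over those with at least 1000 counts in every library.

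The named members kept their sign in 267 of 284 alternative values. With the offsets, without and with the block, Rpl12 turned to 0.13 and 0.19, Rpl32 to 0.33 and 0.31, Rpl41 to 0.057 and 0.031, Rplp0 to 0.18 and 0.078 and Rplp1 to 0.35 and 0.069. The block alone turned Rpl3 to -0.29, Rpl4 to -0.013 and Rps27 to -0.13. Rps27, at 0.00, was also at -0.033 with upper-quartile factors, -2.6e-05 with at least 10 counts and -0.012 with transcripts added up, which put Rpl12 at 0.053. Leaving out single libraries turned 12 of 156 values. The ranges were -0.0065 to 0.60 for Rpl10a, -0.86 to 0.54 for Rpl12, -0.57 to 0.90 for Rpl3, -0.36 to 0.073 for Rpl32, -0.31 to 0.43 for Rpl4, -0.32 to 0.53 for Rpl9, -0.43 to 0.29 for Rplp1, -0.60 to 0.32 for Rps27, -0.087 to 0.18 for Rps4x and -0.031 to 1.0 for Rpsa. The cause of these turns was not tested. Of the members with few counts, Rpl24, Rpl27 and Rps27 had SEs of 1.21, 1.06 and 1.11, which hold both the spread between libraries and counting error.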
